A study of Mus musculus with 15 samples.

Results

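The effect of a tumour on leg muscle in mice was described from RNA sequencing of the tibialis anterior, a fast muscle on the front of the lower hind leg. The comparison set 4 libraries from tumour-bearing mice given an isotype antibody (IgG) against 5 libraries from mice without a tumour (CON), 9 of the 15 libraries of the series, chosen by their labels alone. All mice were C57BL/6 (C57BL/6NCrlOri). IgG mice were males of 6 to 8 weeks when KrasIKKaL cells, a tumour cell line, were placed in the trachea, and they were then injected with rat IgG2b, clone LTF-2. That antibody is the control for therapeutic antibodies and has no known target in the mouse, and the labels write the treatment of these mice as anti-IgG. CON mice had no tumour cells, and no antibody is named for them and no age or sex is given for them alone, so tumour and antibody changed together and cannot be told apart. The other 6 libraries, 3 from tumour-bearing mice given anti-PD-L1 and 3 given anti-CD8a, entered the estimate of the spread and no comparison. The series asks, by its title, about muscle wasting and Cathepsin L (Ctsl) as a target. No label states which mouse gave which library, so p-values measure the spread between these libraries, which may be technical.

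Cachexia, the loss of muscle in cancer, is known for a shift of the fibre from building protein to breaking it down. In that state FoxO transcription factors, which insulin signalling holds out of the nucleus, switch on ubiquitin ligases that tag muscle proteins for the proteasome, a barrel-shaped protease, and genes of autophagy, which delivers cell parts to the lysosome. Glucocorticoids, cytokines of the IL-6 family and myostatin are known inputs, and fast fibres are known to shrink more than slow ones.

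Of 14372 genes tested, 8410 (58.5%) were called at an adjusted p under 0.05 in edgeR's quasi-likelihood test, 4335 (30.2%) higher and 4075 (28.4%) lower in IgG muscle. Of these, 4292 (29.9% of genes tested) differed at least 2-fold, and 145 were at least 8-fold higher and 169 at least 8-fold lower. Levels in the 2 groups did not overlap for 6852 genes (47.7%). With upper-quartile scaling the median of all genes moved to a log2 fold change of -0.27, from -0.02, and the calls split into 3239 higher and 5526 lower, so changes are relative to the scaling. Each gene list is therefore read against 30.2% higher and 28.4% lower, the shares over all genes. The plot of gene lists gives these shares for all 58 lists, which were chosen with results of these data known and carry no test of their own.

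**Figure D1:**
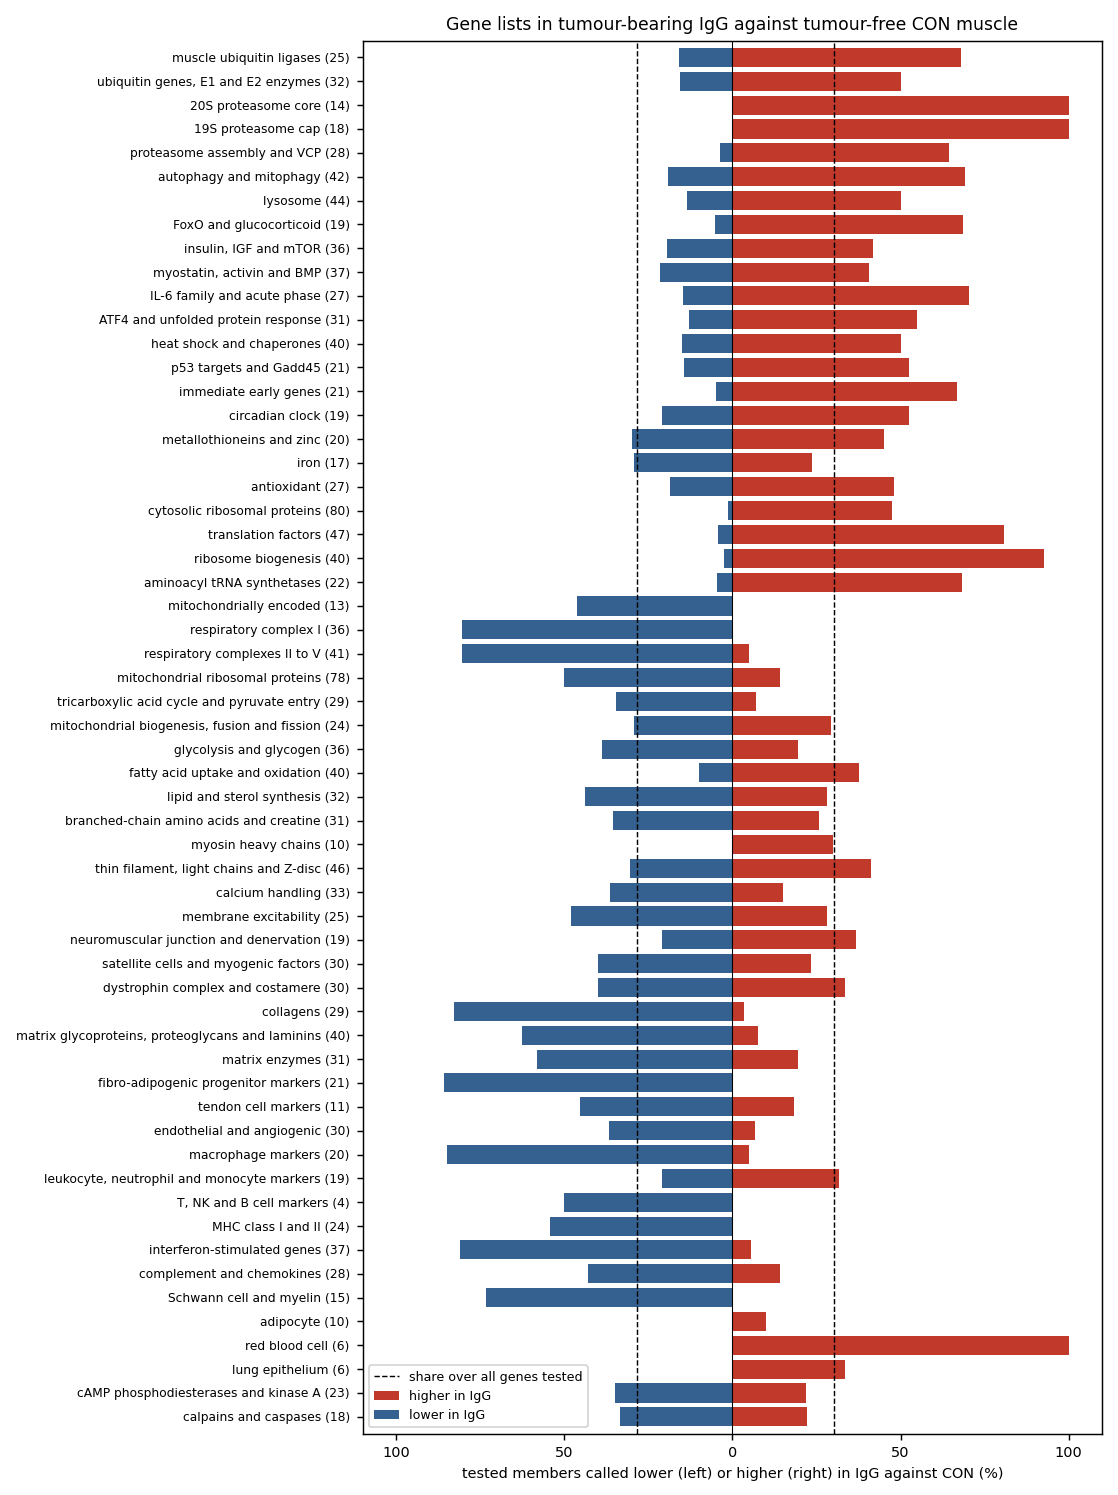
Share of tested members of 58 gene lists (rows, number tested in brackets) called higher (red, right) or lower (blue, left) in IgG against CON, in percent; dashed lines mark the shares over all genes tested. Proteasome lists reach 100% higher, and collagens, fibro-adipogenic progenitor markers and macrophage markers pass 80% lower.

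Library totals were 15894822 to 18768544 expected counts in IgG and 17664347 to 19786207 in CON, and the upper limit that a count of 0 sets (3 counts, counting error only) was 0.160 to 0.189 CPM in IgG and 0.152 to 0.170 CPM in CON. Markers of the muscle fibre were abundant in every library: the summed level of 8 markers was 63827 to 94745 CPM in IgG and 92204 to 129143 CPM in CON, and 6 of the 8 fell. Red cell markers (3 of 3 rose, sum 245.5 to 1746 CPM in IgG and 184 to 345 CPM in CON) and neutrophil markers (3 of 4 rose, sum 2.92 to 10.1 CPM in IgG and 0.354 to 4.14 CPM in CON) were higher in IgG. The 3 general leukocyte markers fell (sum 6.87 to 8.81 CPM in IgG and 12.1 to 16.1 CPM in CON). Of 6 lung epithelium markers 2 were tested, the keratins Krt8 and Krt18. Both rose, highest in IgG replicate 4 at 6.78 and 6.11 CPM, and were not called without that library. The other markers were near the floor. The lung factor Nkx2-1 was at 0 in all 9 libraries, and Sftpc had at most 1 count in any. Scgb1a1 had 3, 0, 0 and 0 counts in IgG and 7, 1, 1, 0 and 1 in CON. Epcam had 0, 0, 0 and 5 counts in IgG and 0, 1, 1, 0 and 1 in CON. IgG replicate 2 lay nearest to CON of its group for 55.3% of higher and 57.7% of lower genes. Without it 8670 genes were called. CON replicate 3 stood apart for a set of stress genes, and without it 8093 genes were called. The part of the red cell, neutrophil and keratin signals and of these libraries in other results was not tested, beyond the values given without a library. In such whole-muscle RNA, fewer cells of a type and less RNA per cell cannot be told apart.

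Most ligases that mark muscle protein for breakdown rose, and Trim63 and Fbxo32 were among the 8 genes called higher that gained the most CPM. Trim63 (ENSMUSG00000028834), the ligase MuRF1 that tags myosin and other thick filament proteins, had 5944, 4044, 4653 and 4519.8 CPM in the IgG libraries, against 283.02, 493, 1258, 289 and 282.8 CPM in the CON libraries. All IgG libraries exceeded all CON libraries, and CON replicate 3 was the highest control (log2 fold change 3.20 ± 0.45 (SE), adjusted p = 2.51e-05; 3.82 without CON replicate 3). Fbxo32 (ENSMUSG00000022358), the ligase atrogin-1, had 4590.3, 3279, 3772 and 4587 CPM in the IgG libraries, against 375, 602, 575, 385 and 390.4 CPM in the CON libraries. For Fbxo32 all IgG values lay above all CON values, with a log2 fold change of 3.12 ± 0.25 (SE) and an adjusted p of 5.4e-07. In the list of muscle ubiquitin ligases 17 of 25 tested members rose and 4 fell, with a median log2 fold change of 0.75. Fbxo31 and Cul1, a substrate adaptor and a scaffold of cullin ligases, rose by 1.9996 ± 0.20 and 1.61 ± 0.15 (SE) in log2, the form in which log2 fold changes with their SE are given from here on, whereas the Z-disc ligase subunit Fbxl22 fell with a log2 fold change of -2.57 ± 0.28 and Trim32 with one of -1.11 ± 0.24. The stress ubiquitin gene Ubb rose by 2.05 ± 0.20 in log2, while among ubiquitin genes, E1 and E2 enzymes as a whole 16 of 32 rose and 5 fell (median 0.28), which turned to 8 higher and 9 lower with upper-quartile scaling, median 0.02.

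The promoter of Trim63 is shown because FoxO factors are known to act on this gene. The 250 bases before its start (RefSeq, GRCm38.p6, chr4:134314870-134315119, plus strand) hold one match to the FoxO letters GTAAACA, in capitals, read on the minus strand, at -194 to -188.
Trim63: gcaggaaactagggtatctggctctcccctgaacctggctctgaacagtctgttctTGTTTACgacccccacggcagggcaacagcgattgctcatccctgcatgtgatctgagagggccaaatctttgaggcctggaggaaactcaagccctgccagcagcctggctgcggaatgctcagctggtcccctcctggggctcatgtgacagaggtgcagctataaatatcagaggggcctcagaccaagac
The same letters, on either strand, stand in 3.65% of 32851 RefSeq mouse promoters of 300 bases. Among the listed ligases 2 of 19 with a promoter entry hold them, Trim63 and Mdm2, and none of the 11 core and 15 cap subunits of the proteasome with an entry does. A listed gene counts if any of its promoters holds a match, whereas 3.65% is a share of single promoters. A match is a description of letters, not a bound site.

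Every tested gene of the standard proteasome rose. The 14 tested genes of the 20S core, the barrel, had log2 fold changes of 0.62 to 1.88, and the 18 of the 19S cap, which unfolds tagged proteins, 0.85 to 2.26. Psmd11, a cap subunit that sets proteasome assembly, had 392.2, 276, 391 and 436 CPM in the IgG libraries, against 79.0, 86.1, 92.9, 79.4 and 73.6 CPM in the CON libraries. Values of Psmd11 did not overlap, and IgG was higher, with a log2 fold change of 2.19 ± 0.17 (SE) and an adjusted p of 4.11e-07. The ubiquitin receptor Psmd4 had 484, 282.8, 669 and 536 CPM in the IgG libraries, against 106, 100.03, 102, 115 and 92.0 CPM in the CON libraries (2.26 ± 0.20 in log2). The share of the transcript pool held by these 2 lists, in TPM, was 0.704%, 0.556%, 0.858% and 0.916% in the IgG libraries and 0.239% to 0.289% in CON (exact permutation test, two-sided, p = 0.0159, the smallest that 4 against 5 libraries can give; adjusted p = 0.0370 over 7 shares). Subunits that replace the core's in immune cells moved the other way: Psmb8 averaged 2.25 ± 0.591 CPM in IgG and 4.94 ± 1.56 CPM in CON (SD, n = 4 and 5; -1.14 ± 0.27 in log2), Psmb9 fell with a log2 fold change of -1.74 ± 0.28 and Psmb10 with one of -1.42 ± 0.19. Around the proteasome, 18 of 28 tested members rose and 1 fell, with a median log2 fold change of 0.64 (14 higher and 4 lower with upper-quartile scaling, median 0.39). The VCP segregase pulls tagged proteins out of filaments and membranes, and its cofactor Nploc4 had 527, 260.2, 469.8 and 548 CPM in the IgG libraries, against 59.3, 73.2, 76.4, 62.5 and 56.9 CPM in the CON libraries (log2 fold change 2.78 ± 0.20 (SE), adjusted p = 4.11e-07), with Ubxn4 at 2.27 ± 0.18 and Vcp itself at 0.89 ± 0.14 in log2. The assembly chaperone Psmg2 was the one member that fell (-0.48 ± 0.17). The call of Psmg2 was lost under 3 of 19 alternatives, among them leaving out IgG replicate 1 or 4, and with one library left out the log2 fold change was -0.70 to -0.36 and the adjusted p at most 0.0904.

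**Figure D2:**
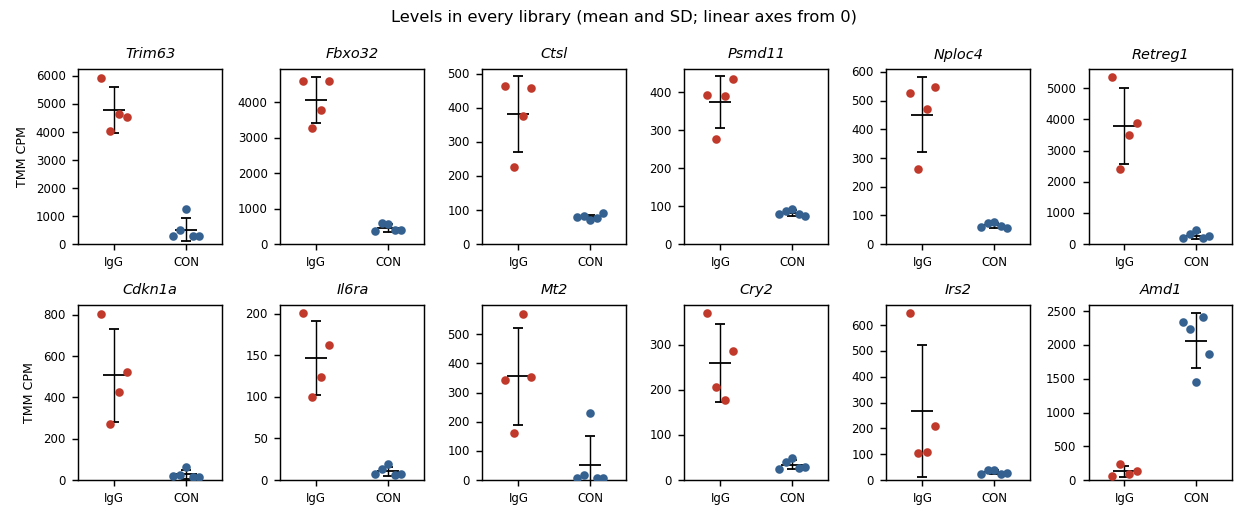
TMM-normalised CPM (linear axes from 0) of 12 genes in each IgG library (red, left, n = 4) and each CON library (blue, right, n = 5); black bars give mean and SD. In 10 of the panels every IgG library lies above every CON library; for Mt2, CON replicate 3 at 229.6 CPM lies among the IgG libraries, and Amd1 is lower in every IgG library.

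Most autophagy genes rose. In the list of autophagy and mitophagy 29 of 42 tested members rose and 8 fell, with a median log2 fold change of 0.80. Bnip3, a receptor on mitochondria, rose by 2.64 ± 0.26, the membrane tag Gabarapl1 by 2.32 ± 0.31 and the cargo receptor Sqstm1 by 1.997 ± 0.18 in log2. Retreg1, the receptor that feeds endoplasmic reticulum into autophagy, had 5346, 2404, 3498 and 3871 CPM in the IgG libraries, against 207, 309, 438, 181 and 244.4 CPM in the CON libraries. It too was among the 8 genes called higher that gained the most CPM (log2 fold change 3.78 ± 0.35 (SE), adjusted p = 9.46e-07). Trp53inp2, which supports autophagosome formation in muscle, went against the group with 118, 170.0, 79.3 and 62.4 CPM in the IgG libraries, against 489, 634, 625, 425 and 330.2 CPM in the CON libraries. For Trp53inp2 all IgG values lay below all CON values, with a log2 fold change of -2.22 ± 0.28 (SE) and an adjusted p of 1.05e-05. Among lysosome genes 22 of 44 rose and 6 fell (median 0.33), with 18 higher and 12 lower with upper-quartile scaling, median 0.08. Ctsl (ENSMUSG00000021477), the protease of the title, had 463, 226, 376 and 459 CPM in the IgG libraries, against 80.4, 81.3, 71.8, 77.5 and 89.9 CPM in the CON libraries. Values of Ctsl did not overlap, and IgG was higher, with a log2 fold change of 2.25 ± 0.24 (SE) and an adjusted p of 2.25e-06. The proton pump subunit Atp6v1h (2.53 ± 0.24), the cholesterol exporter Npc1 (2.25 ± 0.27) and the glycogen-digesting enzyme Gaa (1.76 ± 0.17) rose with it, while Ctso, Ctsc and Ctsh, other cathepsins, fell with log2 fold changes of -1.37 ± 0.22, -1.29 ± 0.25 and -0.89 ± 0.21. Ctsb was not called, at 262 ± 26.9 CPM in IgG and 219.9 ± 12.8 CPM in CON (SD; 0.25 ± 0.13, adjusted p = 0.103). Of calpains and caspases, the other protease families, 4 of 18 rose and 6 fell, with Capn3, the muscle calpain, at a log2 fold change of -0.93 ± 0.15 and the calpain inhibitor Cast at 0.86 ± 0.12; the lower count was 12 with upper-quartile scaling.

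Among FoxO genes and glucocorticoid targets 13 of 19 tested members rose and 1 fell, with a median log2 fold change of 1.46. Foxo1 had 345, 209, 149 and 152 CPM in the IgG libraries, against 23.9, 73.2, 114, 23.2 and 21.8 CPM in the CON libraries. Foxo1 was higher in every IgG library than in any CON library, with a log2 fold change of 2.06 ± 0.49 (SE) and an adjusted p of 0.0021. CON replicates 2 and 3 were high, and still below every IgG library. Foxo3 rose by 1.995 ± 0.26 in log2, Foxo4 was called higher at 0.39 ± 0.15, and Foxo6 averaged 0.819 ± 0.285 CPM in IgG and 3.11 ± 0.453 CPM in CON (SD; -1.92 ± 0.33). Under 10 of 19 alternatives the call of Foxo4 was lost, as without IgG replicate 1 or 2 or CON replicate 2, 4 or 5 (log2 fold change 0.22 to 0.48, adjusted p at most 0.204 with one library left out). Among glucocorticoid targets, Cebpd, a transcription factor, had 493, 274, 193 and 242 CPM in the IgG libraries, against 22.7, 53.1, 54.5, 21.04 and 17.5 CPM in the CON libraries (log2 fold change 3.15 ± 0.45 (SE), adjusted p = 2.73e-05), Errfi1, a brake on epidermal growth factor receptor, rose by 2.77 ± 0.30, the mTOR brake Ddit4 by 2.52 ± 0.50, Fkbp5 by 2.39 ± 0.38 and Klf15 by 2.01 ± 0.35. Tsc22d3, another well-known glucocorticoid target, was not called (358 ± 77.7 CPM in IgG and 279 ± 81.7 CPM in CON, SD; adjusted p = 0.144), and the receptor gene Nr3c1 was at 114 ± 41.4 CPM in IgG and 102 ± 8.54 CPM in CON (adjusted p = 0.481). Without CON replicate 3, Tsc22d3 was called higher in edgeR's test (log2 fold change 0.50, adjusted p = 0.0435). Foxo1, Cebpd and Ddit4 were all higher in CON replicates 2 and 3 than in the other controls.

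In the insulin, IGF and mTOR list 15 of 36 rose and 7 fell (median 0.25), with 14 higher and 11 lower with upper-quartile scaling, median 0.00. Irs2, the adaptor that couples the insulin receptor to its kinase, had 645, 105, 109.6 and 208 CPM in the IgG libraries, against 24.2, 39.3, 37.4, 22.7 and 29.2 CPM in the CON libraries (log2 fold change 3.13 ± 0.46 (SE), adjusted p = 3.57e-05), and IgG replicate 1 was far above the others. The kinase subunit Pik3r1 had 433, 208, 281 and 214 CPM in the IgG libraries, against 25.0, 44.0, 29.4, 26.5 and 32.5 CPM in the CON libraries. Values of Pik3r1 did not overlap, and IgG was higher, with a log2 fold change of 3.17 ± 0.25 (SE) and an adjusted p of 5.27e-07. The receptor Insr rose by 1.69 ± 0.18 and the downstream kinase Akt1 by 2.32 ± 0.23, whereas Akt2 was not called at 0.03 ± 0.13 (adjusted p = 0.873). Igfbp5, which binds IGF in muscle, had 16.9, 43.5, 24.0 and 26.5 CPM in the IgG libraries, against 387, 494, 381, 357 and 345 CPM in the CON libraries. Igfbp5 was lower in every IgG library than in any CON library, with a log2 fold change of -3.82 ± 0.38 (SE) and an adjusted p of 1.6e-06. Grb14, an inhibitor of the insulin receptor, fell with a log2 fold change of -2.96 ± 0.30 and the growth factor Igf1 with one of -1.17 ± 0.31, while Igfbp3 rose by 3.30 ± 0.37. Of genes that restrain protein synthesis, Eif4ebp1, which blocks cap-dependent translation, had 463, 316, 662 and 476 CPM in the IgG libraries, against 43.7, 44.2, 64.1, 51.3 and 38.0 CPM in the CON libraries. For Eif4ebp1 all IgG values lay above all CON values, with a log2 fold change of 3.31 ± 0.24 (SE) and an adjusted p of 4.11e-07. Sesn1, a nutrient sensor that restrains mTOR, had 739.7, 264.97, 180.3 and 352 CPM in the IgG libraries, against 17.2, 24.1, 27.7, 16.5 and 20.9 CPM in the CON libraries. Values of Sesn1 did not overlap, and IgG was higher, with a log2 fold change of 4.17 ± 0.46 (SE) and an adjusted p of 3.35e-06.

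Of the myostatin, activin and BMP pathway, 15 of 37 members rose and 8 fell, with 11 higher and 12 lower with upper-quartile scaling, median -0.04. Myostatin and activins limit muscle size through receptors and Smad2 or Smad3. The ligand Mstn had 218, 312, 77.6 and 193 CPM in the IgG libraries, against 83.2, 89.8, 70.7, 89.0 and 89.7 CPM in the CON libraries (log2 fold change 1.24 ± 0.35 (SE), adjusted p = 0.00618), with IgG replicate 3 within the control range. The type I receptor Acvr1b had 329, 228, 209 and 234 CPM in the IgG libraries, against 32.4, 49.99, 43.4, 38.9 and 43.0 CPM in the CON libraries. Acvr1b was higher in every IgG library than in any CON library, with a log2 fold change of 2.59 ± 0.27 (SE) and an adjusted p of 2.25e-06. Smad3 fell with a log2 fold change of -2.21 ± 0.33, the ligand Gdf11 with one of -2.98 ± 0.42 and the activin-binding family member Fstl1 with one of -2.35 ± 0.25. Smad2, at 0.27 ± 0.15, was not called (adjusted p = 0.119), and the inhibitory Smad7 rose by 1.54 ± 0.22. The BMP-type ligand Gdf5 rose, with 0.542 to 2.05 CPM in IgG against 0 to 0.177 CPM in CON.

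Most genes of the IL-6 family and acute phase rose, and CON replicate 3 was the highest control for several. Here 19 of 27 rose and 4 fell (median 1.19). The receptor Il6ra had 200.2, 99.5, 124 and 162 CPM in the IgG libraries, against 7.01, 12.7, 19.4, 5.90 and 7.27 CPM in the CON libraries. For Il6ra all IgG values lay above all CON values, with a log2 fold change of 3.81 ± 0.43 (SE) and an adjusted p of 3.58e-06. Lcn2, an iron-binding acute phase protein, had 37.1, 10.5, 54.4 and 17.0 CPM in the IgG libraries, against 0.953, 0.825, 4.37, 1.14 and 0.936 CPM in the CON libraries. Values of Lcn2 did not overlap, and IgG was higher, with a log2 fold change of 4.19 ± 0.77 (SE) and an adjusted p of 0.000274. Serpina3n, a protease inhibitor of the same response, had 17.998, 17.4, 38.2 and 24.5 CPM in the IgG libraries, against 1.40, 1.53, 12.4, 1.95 and 0.892 CPM in the CON libraries (log2 fold change 2.77 ± 0.66 (SE), adjusted p = 0.00193), and CON replicate 3 was again high. Without that library the log2 fold change of Lcn2 was 4.93 and that of Serpina3n 4.08. The signal carrier Stat3 rose by 1.01 ± 0.25, and its feedback gene Socs3 was called higher at 1.43 ± 0.51, both with group ranges that overlapped. The call of Socs3 was lost under 7 of 19 alternatives, among them leaving out IgG replicate 1 or 3 or CON replicate 1, 2, 4 or 5, and with one library left out the log2 fold change was 1.16 to 2.19 and the adjusted p at most 0.0847. The cytokine Il6 was near the floor in muscle itself, at 0.241 to 1.303 CPM in IgG and 0 to 0.108 CPM in CON, so its call rests on few counts.

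Of ATF4 and unfolded protein targets 17 of 31 rose and 4 fell (median 0.38). Ppp1r15a, which restores translation after stress, had 533, 209, 228 and 221 CPM in the IgG libraries, against 19.5, 22.9, 30.2, 20.9 and 22.3 CPM in the CON libraries (log2 fold change 3.68 ± 0.32 (SE), adjusted p = 6.51e-07), with IgG replicate 1 the highest. The amino acid carriers Slc7a1 and Slc7a5 rose by 2.43 ± 0.29 and 1.89 ± 0.42, as did Psat1, an enzyme of serine synthesis, by 1.62 ± 0.37, whereas Psph, the enzyme after it, fell with a log2 fold change of -2.09 ± 0.31. Among heat shock proteins and chaperones 20 of 40 rose and 6 fell (median 0.38). The small heat shock protein Hspb1, which binds stressed sarcomeres, had 419.5, 457, 583 and 1019 CPM in the IgG libraries, against 135, 121, 137, 145 and 113 CPM in the CON libraries. For Hspb1 all IgG values lay above all CON values, with a log2 fold change of 2.25 ± 0.25 (SE) and an adjusted p of 3.88e-06. Hspb7 rose by 2.16 ± 0.36. The chief heat-inducible partners Hsph1 and Dnajb1 were not called (-0.05 ± 0.18 and -0.15 ± 0.18). Of p53 targets and Gadd45 genes 11 of 21 rose and 3 fell (median 0.78), led by the cell-cycle inhibitor Cdkn1a, which had 806, 272, 426 and 524 CPM in the IgG libraries, against 18.2, 25.9, 62.9, 14.9 and 15.0 CPM in the CON libraries. Values of Cdkn1a did not overlap, and IgG was higher, with a log2 fold change of 4.21 ± 0.52 (SE) and an adjusted p of 8.25e-06. Of immediate early genes 14 of 21 rose and 1 fell (median 0.88). Junb had 161, 22.4, 59.0 and 21.3 CPM in the IgG libraries, against 5.10, 6.60, 16.0, 4.76 and 5.57 CPM in the CON libraries (log2 fold change 3.12 ± 0.53 (SE), adjusted p = 0.00014) and Maff 161, 19.7, 29.2 and 38.9 CPM in the IgG libraries, against 3.93, 5.66, 17.1, 2.76 and 4.64 CPM in the CON libraries (log2 fold change 3.20 ± 0.60 (SE), adjusted p = 0.000332), so that IgG replicate 1 was the highest for both and CON replicate 3 the highest control.

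Clock genes changed in both directions, and 10 of 19 rose and 4 fell (median 0.78). The clock output gene Dbp had 3.17, 3.25, 5.99 and 2.69 CPM in the IgG libraries, against 66.5, 59.4, 26.2, 82.7 and 77.0 CPM in the CON libraries. Dbp was lower in every IgG library than in any CON library, with a log2 fold change of -4.05 ± 0.40 (SE) and an adjusted p of 1.36e-06. The repressor Cry2 had 369.6, 206, 178 and 285.6 CPM in the IgG libraries, against 23.4, 39.3, 47.8, 27.7 and 29.2 CPM in the CON libraries. For Cry2 all IgG values lay above all CON values, with a log2 fold change of 2.96 ± 0.28 (SE) and an adjusted p of 1.12e-06. Arntl, on the activating side of the clock, rose by 1.92 ± 0.28, and the repressors Per1 and Per2 by 2.26 ± 0.31 and 1.10 ± 0.25. Nr1d1, which normally swings with Dbp, was not called, at 0.00 ± 0.16 (adjusted p = 0.983). The labels give no hour of dissection, so sampling time and group cannot be told apart.

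Of 20 metallothionein and zinc genes 9 rose (45%) and 6 fell (30%), which turned to 6 higher and 9 lower with upper-quartile scaling, median -0.29. The metallothioneins bind zinc inside cells and rise with zinc, glucocorticoids and cytokines. Mt1 had 544, 227, 698 and 489.6 CPM in the IgG libraries, against 18.2, 34.2, 262.6, 15.3 and 14.7 CPM in the CON libraries. Mt1 overlapped between the groups, with a log2 fold change of 2.83 ± 0.75 (SE) and an adjusted p of 0.0043. Mt2 had 342, 161, 568 and 352 CPM in the IgG libraries, against 6.95, 16.2, 229.6, 6.87 and 6.02 CPM in the CON libraries. Mt2 overlapped between the groups, with a log2 fold change of 2.75 ± 0.94 (SE) and an adjusted p of 0.0191. CON replicate 3 lay within the IgG range for both genes and the other 4 controls lay below every IgG library. Without it the log2 fold changes were 4.57 for Mt1 and 5.31 for Mt2, and without IgG replicate 3 the adjusted p of Mt2 was 0.0504 (log2 fold change 2.43). Mt1 and Mt2 are close copies, so reads may be divided between them with error. The zinc importer Slc39a14 had 152, 193, 86.0 and 248 CPM in the IgG libraries, against 12.5, 17.7, 41.4, 11.1 and 11.2 CPM in the CON libraries (log2 fold change 3.18 ± 0.50 (SE), adjusted p = 6.51e-05), while the importers Slc39a3 and Slc39a1 fell with log2 fold changes of -1.11 ± 0.15 and -0.93 ± 0.13. Metal response letters, TGCACNC or TGCGCNC on either strand, are in capitals in the 250 bases before the starts of Mt1 (chr8:94178839-94179088) and Mt2 (chr8:94172368-94172617), both on the plus strand in GRCm38.p6, shown because the pair neighbour each other and moved together.
Mt1: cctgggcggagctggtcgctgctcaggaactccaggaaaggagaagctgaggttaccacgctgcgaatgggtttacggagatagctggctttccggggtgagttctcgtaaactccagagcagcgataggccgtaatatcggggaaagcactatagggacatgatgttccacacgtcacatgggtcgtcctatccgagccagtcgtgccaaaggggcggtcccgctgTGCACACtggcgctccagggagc
Mt2: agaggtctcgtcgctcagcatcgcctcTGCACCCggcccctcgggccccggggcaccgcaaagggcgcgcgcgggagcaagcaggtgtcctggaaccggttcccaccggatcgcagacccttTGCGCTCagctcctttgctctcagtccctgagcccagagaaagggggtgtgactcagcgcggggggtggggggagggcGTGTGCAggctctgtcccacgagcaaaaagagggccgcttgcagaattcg
Counting also the 50 bases after the start, the Mt2 promoter holds 4 matches and that of Mt1 holds 3. At least 1 match stands in 25.7% of all promoters, at least 2 in 7.11% and at least 4 in 0.517%. Of the zinc list 11 of 18 members with an entry hold a match in at least 1 of their promoters, genes that rose and genes that fell among them. That is a count of genes, whereas 25.7% is a share of single promoters.

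Both Tfrc and Steap3, which bring iron into the cell, fell. Tfrc, the transferrin receptor, had 21.8, 22.2, 8.25 and 9.28 CPM in the IgG libraries, against 228, 241, 267, 187 and 188 CPM in the CON libraries. For Tfrc all IgG values lay below all CON values, with a log2 fold change of -3.85 ± 0.40 (SE) and an adjusted p of 1.92e-06. Steap3, which reduces iron released from transferrin, had 3.97, 7.28, 3.40 and 3.60 CPM in the IgG libraries, against 25.1, 23.2, 26.3, 24.4 and 28.0 CPM in the CON libraries. Values of Steap3 did not overlap, and IgG was lower, with a log2 fold change of -2.47 ± 0.29 (SE) and an adjusted p of 4.96e-06. The mitochondrial iron importer Slc25a28 rose by 1.91 ± 0.22, its relative Slc25a37 fell with a log2 fold change of -0.76 ± 0.13, and the ferritin genes Fth1 and Ftl1 were not called (0.11 ± 0.17 and 0.23 ± 0.17). Over the list of 17 iron genes, 4 rose and 5 fell. Among antioxidant genes 13 of 27 rose and 5 fell (median 0.30), with 9 higher and 8 lower with upper-quartile scaling, median 0.05. Gclm and Gclc, the 2 subunits that make glutathione's precursor, rose by 1.67 ± 0.20 and 1.18 ± 0.14, and the extracellular Sod3 and mitochondrial Sod2 fell with log2 fold changes of -1.54 ± 0.27 and -0.76 ± 0.15.

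Most genes that build ribosomes and start translation rose. Of ribosome biogenesis factors 37 of 40 rose and 1 fell (median 0.96), and of translation factors 38 of 47 rose and 2 fell (median 0.87), against 30.2% higher over all genes. The initiation factor Eif3a had 614, 364, 561 and 727 CPM in the IgG libraries, against 109, 141, 143, 108 and 97.0 CPM in the CON libraries. Eif3a was higher in every IgG library than in any CON library, with a log2 fold change of 2.24 ± 0.23 (SE) and an adjusted p of 1.96e-06. Tsr1, which matures the small ribosomal subunit, had 129, 85.4, 139 and 156 CPM in the IgG libraries, against 26.3, 22.7, 26.3, 22.8 and 22.3 CPM in the CON libraries. For Tsr1 all IgG values lay above all CON values, with a log2 fold change of 2.41 ± 0.18 (SE) and an adjusted p of 4.11e-07. The helicase Eif4a1 rose by 1.83 ± 0.17 and the nucleolar Gnl3 by 2.26 ± 0.20. Of cytosolic ribosomal proteins 38 of 80 rose and 1 fell, the muscle-specific Rpl3l (-0.76 ± 0.14), whose ubiquitous counterpart Rpl3 rose most (1.08 ± 0.20). The higher count was 11 with upper-quartile scaling, 23 without IgG replicate 3, and 24 without IgG replicate 1 or CON replicate 2. The share of the pool held by these genes was 6.06% ± 0.825 (SD, n = 4) in IgG and 4.01% ± 1.04 (n = 5) in CON (exact permutation p = 0.0476, adjusted p = 0.0556), so it did not pass, and as a share of counts the difference was 0.471 points (adjusted p = 0.159). Of tRNA synthetases 15 of 22 rose and 1 fell (median 0.60). Vars rose by 1.95 ± 0.18, and Aimp2, a scaffold of the synthetase complex, averaged 21.9 ± 8.76 CPM in IgG and 98.2 ± 7.65 CPM in CON (SD; -2.16 ± 0.25).

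Most respiratory chain genes fell, the larger number by less than 2-fold. Of complex I subunits 0 of 36 rose and 29 fell (median -0.67), and of complexes II to V 2 of 41 rose and 33 fell (median -0.53). Cox7a1, the muscle form of a cytochrome oxidase subunit, had 84.3, 111, 90.1 and 97.5 CPM in the IgG libraries, against 357, 259.7, 269.9, 314 and 279 CPM in the CON libraries. Values of Cox7a1 did not overlap, and IgG was lower, with a log2 fold change of -1.63 ± 0.18 (SE) and an adjusted p of 3.58e-06. Ndufs1, the largest complex I subunit, had 158, 175, 133 and 121 CPM in the IgG libraries, against 284.9, 284.8, 307, 235 and 233 CPM in the CON libraries. Ndufs1 was lower in every IgG library than in any CON library, with a log2 fold change of -0.87 ± 0.15 (SE) and an adjusted p of 0.000108. The exceptions among the subunits of complexes II to V were the rises of Cox6a2 and Cox8a, by 0.40 ± 0.15 and 0.60 ± 0.16, and with upper-quartile scaling none of the 41 was called higher. Under 12 of 19 alternatives the call of Cox6a2 was lost, as without IgG replicate 1, 3 or 4 or CON replicate 1, 2, 3 or 5 (log2 fold change 0.34 to 0.47, adjusted p at most 0.0973 with one library left out). The 13 protein genes of the mitochondrial genome held 28.1%, 28.2%, 29.5% and 25.1% of the pool in the IgG libraries, against 39.5%, 36.8%, 34.2%, 30.2% and 32.6% in CON (exact permutation p = 0.0159, adjusted p = 0.0370). Of the 13 protein genes of that genome 6 fell, among them mt-Co3 (-1.58 ± 0.25) and mt-Atp6 (-1.19 ± 0.23), and mt-Cytb and mt-Nd5 were not called (-0.14 ± 0.18 and 0.14 ± 0.19). mt-Co3 and mt-Atp6 were among the 8 genes called lower that lost the most CPM, as was Gm28661 (-0.69 ± 0.16), for which no role is annotated here. Gm28661 stood with Gm28437, Gm10925 and mitochondrial genes among the 10 most abundant genes of CON by TPM. In TPM, mt-Atp6 averaged 14811 in IgG and 29011 in CON, whereas Gm10925 averaged 34172 ± 6020 in IgG and 21274 ± 11229 in CON (SD). Whether reads were divided between such genes and the mitochondrial genes was not tested. Of mitochondrial ribosomal proteins 39 of 78 fell and 11 rose, and the higher count was 6 without IgG replicate 3 and 4 with upper-quartile scaling. Ppargc1a, the coactivator PGC-1 alpha, which drives mitochondrial genes, had 41.4, 28.2, 41.5 and 17.7 CPM in the IgG libraries, against 35.9, 91.3, 301, 26.6 and 40.1 CPM in the CON libraries (log2 fold change -1.62 ± 0.58 (SE), adjusted p = 0.0243), and CON replicate 3 was far above the other controls. Without it the log2 fold change was -0.59 (adjusted p = 0.156), and the call was also lost without IgG replicate 2 or IgG replicate 4. Perm1, Esrra and Ppargc1b, partners in the same control, fell with log2 fold changes of -1.70 ± 0.25, -1.46 ± 0.19 and -1.19 ± 0.32. In the whole list of mitochondrial biogenesis, fusion and fission, 7 of 24 tested members rose and 7 fell (29.2% each, median 0.03). These shares are near the 30.2% and 28.4% over all genes, so the list as a whole was not lowered.

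In glycolysis and glycogen 7 of 36 tested members rose and 14 fell, with a median log2 fold change of -0.20. These genes held 3.15% ± 0.411 of TPM in IgG and 3.76% ± 0.492 in CON (SD; exact permutation p = 0.0952, adjusted p = 0.0952), which did not pass, and as a share of counts the difference was -1.52 points (adjusted p = 0.0278). Pgam2, the muscle phosphoglycerate mutase, averaged 260.2 ± 96.6 CPM in IgG and 1419 ± 192 CPM in CON (SD, n = 4 and 5; -2.45 ± 0.27), and Pgm1, which links glycogen to glycolysis, fell with a log2 fold change of -2.39 ± 0.33. Pygm, which opens glycogen, and Aldoa were not called (-0.06 ± 0.19 and -0.16 ± 0.19). The glucose carriers differed: Slc2a1 rose by 1.57 ± 0.33, and the insulin-responsive Slc2a4 was not called (-0.17 ± 0.14). Entry of pyruvate into mitochondria is opened by the phosphatase Pdp1, which fell with a log2 fold change of -2.11 ± 0.24, and closed by the kinase Pdk4, which had 1773, 2150.4, 2924 and 535 CPM in the IgG libraries, against 776, 1626, 2033, 616 and 629.9 CPM in the CON libraries and was not called (adjusted p = 0.266). In fatty acid uptake and oxidation 15 of 40 rose and 4 fell (median 0.33). Pnpla2, the lipase that opens fat droplets, had 803, 655, 985 and 920.3 CPM in the IgG libraries, against 164, 227, 234, 158 and 142 CPM in the CON libraries. Values of Pnpla2 did not overlap, and IgG was higher, with a log2 fold change of 2.18 ± 0.24 (SE) and an adjusted p of 3.57e-06. The acyl-CoA ligase Acsl6 rose by 2.75 ± 0.26. Cpt1b, the muscle gate of fatty acid oxidation, was not called, at 0.10 ± 0.16 (adjusted p = 0.617). In lipid and sterol synthesis 9 of 32 rose and 14 fell (median -0.45). Fdft1, which makes squalene, and Lss, which forms the first sterol, rose by 1.97 ± 0.20 and 1.58 ± 0.29, and Dhcr7, which finishes cholesterol, fell with a log2 fold change of -3.01 ± 0.29.

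Large changes were measured in some polyamine, creatine and adenylate genes. In the list of branched-chain amino acids and creatine as a whole, 8 of 31 tested members rose (25.8%) and 11 fell (35.5%), with a median of -0.18. Over all genes 30.2% rose and 28.4% fell. Amd1, which makes the aminopropyl donor for spermidine and spermine, had 59.2, 243, 87.8 and 127 CPM in the IgG libraries, against 2342, 2237, 1447, 2418 and 1872 CPM in the CON libraries. Amd1 was lower in every IgG library than in any CON library, with a log2 fold change of -3.996 ± 0.51 (SE) and an adjusted p of 1.1e-05. Amd2, its near copy, fell alike, and reads may be shared between both. Smox, which oxidises spermine, had 50.6, 70.1, 35.8 and 24.6 CPM in the IgG libraries, against 503, 562, 399, 539.7 and 301 CPM in the CON libraries. For Smox all IgG values lay below all CON values, with a log2 fold change of -3.35 ± 0.41 (SE) and an adjusted p of 8.1e-06. Sat1, which acetylates polyamines for export, rose by 0.87 ± 0.18. Odc1, the first enzyme of polyamine synthesis, was not called at 217 ± 152 CPM in IgG and 331 ± 54.6 CPM in CON (SD; adjusted p = 0.118). Gatm and Gamt make creatine: Gamt had 0.248, 1.08, 0.315 and 0.0611 CPM in the IgG libraries, against 10.5, 7.96, 7.88, 9.14 and 7.80 CPM in the CON libraries (log2 fold change -4.31 ± 0.61 (SE), adjusted p = 2.65e-05), and Gatm fell with a log2 fold change of -2.16 ± 0.31. The creatine kinases Ckmt2, Ckb and Ckm fell with log2 fold changes of -1.60 ± 0.21, -1.58 ± 0.30 and -0.53 ± 0.20, and the creatine carrier Slc6a8 was not called (-0.26 ± 0.18). The call of Ckm was lost under 5 of 19 alternatives, without IgG replicate 3 or 4 or CON replicate 1 or 4 among them, with a log2 fold change of -0.64 to -0.39 and an adjusted p of at most 0.109 over the fits that left out one library. AMP deaminase, which drains adenylate in working muscle, differed by form: Ampd3, the form of other tissues, had 252, 132, 226 and 204 CPM in the IgG libraries, against 8.36, 20.8, 16.0, 6.82 and 8.87 CPM in the CON libraries. Ampd3 was higher in every IgG library than in any CON library, with a log2 fold change of 4.07 ± 0.51 (SE) and an adjusted p of 8.77e-06. Ampd1, the muscle form, had 173, 384, 134 and 102 CPM in the IgG libraries, against 868.1, 752, 813, 978 and 884 CPM in the CON libraries. For Ampd1 all IgG values lay below all CON values, with a log2 fold change of -2.11 ± 0.30 (SE) and an adjusted p of 3.01e-05.

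The contractile genes changed in opposite directions within the sarcomere. None of the adult fast myosin heavy chains was called. Myh4, of type IIb fibres, averaged 27982 ± 6784 CPM in IgG and 22652 ± 4349 CPM in CON (SD, n = 4 and 5; log2 0.30 ± 0.25, adjusted p = 0.301), Myh1, of type IIx, 3856 ± 1882 CPM in IgG and 2434 ± 993 CPM in CON (adjusted p = 0.106), and Myh2, of type IIa, 1784 ± 947 CPM in IgG and 1192 ± 465 CPM in CON (adjusted p = 0.249). CON replicate 3 was the highest control for Myh1, at 4166 CPM. Without that library Myh1 was called higher in edgeR's test (log2 fold change 0.94, adjusted p = 0.0234). The slow Myh7 had 463, 456, 884 and 2385 CPM in the IgG libraries, against 76.9, 1016, 195, 32.7 and 41.2 CPM in the CON libraries with ranges that overlapped (adjusted p = 0.113), with high values in IgG replicate 4 and CON replicate 2. The embryonic Myh3 rose, with 4.94 to 15.8 CPM in IgG against 0.785 to 3.48 CPM in CON (2.19 ± 0.47), the nonmuscle Myh14 rose by 2.13 ± 0.19, and the cardiac Myh6 by 1.04 ± 0.43. The call of Myh6 was lost under 10 of 19 alternatives, without IgG replicate 2 or 4 or CON replicate 1, 4 or 5 among them, with a log2 fold change of 0.64 to 1.23 and an adjusted p of at most 0.231 over the fits that left out one library. The perinatal Myh8 was not called (0.11 ± 0.33). As a share of TPM the myosin heavy chains held 0.637% ± 0.123 in IgG and 0.414% ± 0.0769 in CON (SD; exact permutation p = 0.0159, adjusted p = 0.0370; 0.0926 as a share of counts).

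Of thin filament, light chain and Z-disc genes 19 of 46 tested members rose and 14 fell, with a median log2 fold change of 0.44 (12 higher and 14 lower with upper-quartile scaling, median 0.19). Skeletal actin Acta1 averaged 14275 ± 821 CPM in IgG and 25526 ± 4625 CPM in CON (SD; -0.84 ± 0.18, adjusted p = 0.000772), and the light chain Myl1, tropomyosin Tpm1 and the light chain Mylpf fell with log2 fold changes of -1.63 ± 0.31, -1.08 ± 0.29 and -1.24 ± 0.28. The cardiac actin gene Actc1 had 7.01, 10.7, 15.7 and 11.97 CPM in the IgG libraries, against 96.5, 78.9, 93.2, 74.4 and 54.2 CPM in the CON libraries. Actc1 was lower in every IgG library than in any CON library, with a log2 fold change of -2.81 ± 0.59 (SE) and an adjusted p of 0.000732. The Z-disc protein Myoz3 fell with a log2 fold change of -2.39 ± 0.40. Several genes known to respond to strain on the sarcomere rose: Flnc, a Z-disc repair protein, had 3466, 2508, 3278 and 5525 CPM in the IgG libraries, against 503, 615, 821, 508 and 375 CPM in the CON libraries. For Flnc all IgG values lay above all CON values, with a log2 fold change of 2.71 ± 0.30 (SE) and an adjusted p of 3.24e-06. Ankrd1, Ankrd2, Xirp1 and Nrap rose by 2.52 ± 0.47, 2.56 ± 0.47, 2.37 ± 0.39 and 1.95 ± 0.18. The long structural gene Ttn rose by 0.70 ± 0.23 (adjusted p = 0.0173). The call of Ttn was lost under 4 of 19 alternatives, without IgG replicate 1 or CON replicate 1 among them, with a log2 fold change of 0.51 to 0.83 and an adjusted p of at most 0.0856 over the fits that left out one library. In all, thin filament, light chain and Z-disc genes held 9.94% ± 0.503 of TPM in IgG and 11.97% ± 1.62 in CON (exact permutation p = 0.0317, adjusted p = 0.0444).

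**Figure D3:**
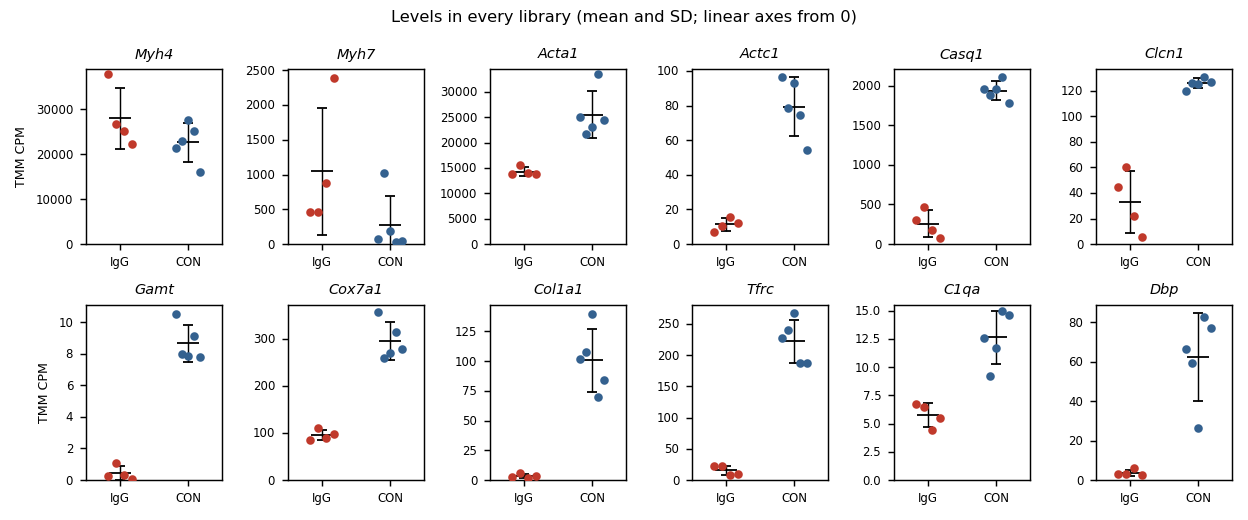
TMM-normalised CPM (linear axes from 0) of 12 fibre, energy, matrix and other genes in each IgG library (red, left, n = 4) and each CON library (blue, right, n = 5); black bars give mean and SD. Myh4 and Myh7 overlap between the groups, while Casq1, Gamt, Col1a1, Tfrc and Dbp are lower in every IgG library than in any CON library.

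Genes that carry calcium and current fell more often than they rose. In calcium handling 5 of 33 rose and 12 fell (median -0.16), and in membrane excitability 7 of 25 rose and 12 fell (median -0.13). Casq1, which stores calcium in fast fibres, had 305, 472, 181 and 78.3 CPM in the IgG libraries, against 1950.3, 1884, 1960.5, 2103 and 1776 CPM in the CON libraries. Casq1 was lower in every IgG library than in any CON library, with a log2 fold change of -2.90 ± 0.43 (SE) and an adjusted p of 3.63e-05. The calcium buffer Pvalb fell with a log2 fold change of -1.52 ± 0.35, the junction protein Jph2 with one of -2.17 ± 0.29 and the calmodulin gene Calm2 with one of -1.86 ± 0.18. Sln, a small inhibitor of the calcium pump, rose, with 13.8 to 52.5 CPM in IgG against 1.07 to 4.42 CPM in CON (3.34 ± 0.73), and the release channel Ryr1 rose by 0.69 ± 0.19. The fast pump Atp2a1 was called higher at 0.55 ± 0.21. Under 10 of 19 alternatives the call of Atp2a1 was lost, as without IgG replicate 1 or 2 or CON replicate 1, 2, 4 or 5 (log2 fold change 0.34 to 0.67, adjusted p at most 0.175 with one library left out). Among channels, Kcng4, a modulatory potassium channel subunit, had 0.869, 1.14, 0.252 and 0.0611 CPM in the IgG libraries, against 44.1, 31.9, 32.3, 38.4 and 31.7 CPM in the CON libraries. Values of Kcng4 did not overlap, and IgG was lower, with a log2 fold change of -5.92 ± 0.42 (SE) and an adjusted p of 4.11e-07. Lrrc38, an auxiliary subunit of calcium-activated potassium channels, had 0.124, 1.14, 0.567 and 0.428 CPM in the IgG libraries, against 27.7, 22.9, 18.5, 28.2 and 30.2 CPM in the CON libraries. Lrrc38 was lower in every IgG library than in any CON library, with a log2 fold change of -5.47 ± 0.64 (SE) and an adjusted p of 4.84e-06. Clcn1, the chloride channel that keeps the resting membrane quiet, had 44.9, 60.3, 22.2 and 5.44 CPM in the IgG libraries, against 119.9, 126.2, 125, 130.3 and 127 CPM in the CON libraries. For Clcn1 all IgG values lay below all CON values, with a log2 fold change of -1.92 ± 0.43 (SE) and an adjusted p of 0.00124. The water channel Aqp4 fell with a log2 fold change of -4.68 ± 0.47. The sodium pump subunit Atp1b2 fell with a log2 fold change of -1.83 ± 0.35. The muscle sodium channel Scn4a was not called (-0.01 ± 0.15, adjusted p = 0.978).

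Denervation genes gave a mixed picture. Of neuromuscular junction and denervation genes 7 of 19 rose and 4 fell, against 3 and 6 with upper-quartile scaling, and the higher count was 4 without CON replicate 1 or CON replicate 5. Runx1, a factor induced by loss of the nerve, had 38.0, 15.7, 23.6 and 27.5 CPM in the IgG libraries, against 1.35, 2.59, 4.08, 1.46 and 1.47 CPM in the CON libraries. Values of Runx1 did not overlap, and IgG was higher, with a log2 fold change of 3.59 ± 0.34 (SE) and an adjusted p of 1.07e-06. The receptor subunit Chrnb1 rose by 0.89 ± 0.22. Myog and Chrnd were not called (0.67 ± 0.31 and 0.27 ± 0.38), and Ache, which clears acetylcholine, fell with a log2 fold change of -1.99 ± 0.26. Of satellite cell and myogenic genes 7 of 30 rose and 12 fell (median -0.25), with the stem cell marker Pax7 at 0.755 ± 0.277 CPM in IgG and 1.61 ± 0.455 CPM in CON (SD; -1.08 ± 0.41) and Myod1 at -1.57 ± 0.50. The call of Pax7 was lost under 5 of 19 alternatives, among them leaving out IgG replicate 1 or 4 or CON replicate 2 or 5, and with one library left out the log2 fold change was -1.29 to -0.94 and the adjusted p at most 0.0863. In the dystrophin complex 10 of 30 rose and 12 fell (median -0.26), with 6 higher with upper-quartile scaling. Dmd and Dag1 rose by 1.60 ± 0.18 and 1.003 ± 0.17, and the caveola protein Cav3 fell with a log2 fold change of -1.34 ± 0.21. Among cAMP genes the phosphodiesterase Pde4a had 0.559, 2.53, 1.51 and 0.550 CPM in the IgG libraries, against 53.9, 47.0, 46.0, 50.6 and 48.6 CPM in the CON libraries (log2 fold change -5.25 ± 0.37 (SE), adjusted p = 4.11e-07), while Pde4d rose by 1.45 ± 0.34; 5 of 23 members rose and 8 fell, against 6 and 5 without IgG replicate 3.

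Collagens had the lowest median of the 58 lists. Of collagens 1 of 29 tested members rose and 24 fell, with a median log2 fold change of -1.98. Col1a1, a chain of the main fibrillar collagen, had 2.67, 5.96, 1.51 and 3.60 CPM in the IgG libraries, against 102, 108, 140.0, 69.8 and 84.1 CPM in the CON libraries. For Col1a1 all IgG values lay below all CON values, with a log2 fold change of -4.87 ± 0.53 (SE) and an adjusted p of 2.6e-06. Col3a1 had 4.16, 10.7, 2.90 and 6.29 CPM in the IgG libraries, against 195, 154, 247, 174 and 216 CPM in the CON libraries. Values of Col3a1 did not overlap, and IgG was lower, with a log2 fold change of -5.03 ± 0.49 (SE) and an adjusted p of 1.33e-06. The chains of collagen VI, which surrounds each fibre, fell with log2 fold changes of -3.36 ± 0.33, -3.79 ± 0.38 and -3.90 ± 0.55 for Col6a1, Col6a2 and Col6a3. The basement membrane chains Col4a1 and Col4a2 fell less, at -0.92 ± 0.21 and -0.61 ± 0.20, and Col19a1 alone rose (2.63 ± 0.46). Of glycoproteins, proteoglycans and laminins 3 of 40 rose and 25 fell (median -1.08), with Sparc at 139 ± 20.5 CPM in IgG and 376 ± 66.5 CPM in CON (SD; -1.44 ± 0.18), Fbn1 at -2.73 ± 0.28 and Thbs1 the steepest rise at 1.90 ± 0.39. The proteoglycan Dcn was not called (576 ± 83.5 CPM in IgG and 628 ± 101 CPM in CON, SD; adjusted p = 0.49). Of matrix enzymes and their partners 6 of 31 rose and 18 fell: Serpinh1, its chaperone, fell with a log2 fold change of -2.35 ± 0.24 and Pcolce with one of -2.72 ± 0.26, while Lox and Mmp14 rose by 1.304 ± 0.41 and 1.19 ± 0.19. Markers of fibro-adipogenic progenitors, the cells that make much of this matrix, fell in 18 of 21 and rose in none. Pi16 and Clec3b fell with log2 fold changes of -3.77 ± 0.48 and -3.31 ± 0.44, and the defining receptor Pdgfra with one of -0.70 ± 0.16. The summed level of 6 progenitor markers was 917.5 to 1263 CPM in IgG and 1166 to 1773 CPM in CON, and 5 of the 6 fell.

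Of tendon cell markers 2 of 11 rose and 5 fell, with log2 fold changes up to 1.86 (1 higher and 6 lower with upper-quartile scaling). The tendon cell proteins Kera and Tnmd fell with log2 fold changes of -5.13 ± 0.65 and -3.80 ± 0.51, and the tendon factor Scx was not called (-0.78 ± 0.41). Of endothelial and angiogenic genes 2 of 30 rose and 11 fell (median -0.47), and Pecam1, on all endothelial cells, was not called (0.12 ± 0.23, adjusted p = 0.679). The lower count of the list was 7 without IgG replicate 1 or CON replicate 5, and 15 without IgG replicate 2. Apln, a vessel hormone, was at 0 in 3 IgG libraries and 0.120 CPM in the other, against 1.65 to 4.24 CPM in CON, and its receptor Aplnr fell with a log2 fold change of -2.68 ± 0.54. Of Schwann cell and myelin genes 11 of 15 fell and none rose. The count was 5 without IgG replicate 4, and 6 without IgG replicate 3, CON replicate 3 or CON replicate 5. None of the 3 tested fat cell markers was called, with a summed level of 0.504 to 40.5 CPM in IgG and 1.25 to 7.63 CPM in CON. In the wider adipocyte list 1 of 10 tested members rose and 0 fell, with a median log2 fold change of 1.21.

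Most macrophage markers and interferon-stimulated genes fell. Of macrophage markers 1 of 20 rose and 17 fell (median -1.24). C1qa, a complement chain made by macrophages, had 6.70, 6.44, 4.41 and 5.50 CPM in the IgG libraries, against 12.6, 9.25, 11.7, 14.9 and 14.6 CPM in the CON libraries. C1qa was lower in every IgG library than in any CON library, with a log2 fold change of -1.13 ± 0.24 (SE) and an adjusted p of 0.000909. Folr2 fell with a log2 fold change of -3.90 ± 0.57. The exception was Cd68, a lysosomal protein of macrophages, at 21.3 ± 15.1 CPM in IgG and 2.81 ± 0.582 CPM in CON (SD; 2.92 ± 0.51). The summed level of 6 macrophage markers was 18.02 to 29.5 CPM in IgG and 41.1 to 73.5 CPM in CON. Interferon-stimulated genes fell in 30 of 37 and 2 rose. Ifit3 had 1.49, 1.20, 1.58 and 0.611 CPM in the IgG libraries, against 3.48, 5.66, 3.05, 4.65 and 5.93 CPM in the CON libraries. For Ifit3 all IgG values lay below all CON values, with a log2 fold change of -1.90 ± 0.36 (SE) and an adjusted p of 0.000301. The factor Irf7 fell with a log2 fold change of -1.40 ± 0.28. Cxcl10, an interferon-induced chemokine, was one of the 2 that rose, with 0.542 to 3.54 CPM in IgG against 0.112 to 0.345 CPM in CON, while Cxcl9 fell with a log2 fold change of -3.30 ± 0.58. Of the MHC list 13 of 24 fell and none rose: B2m averaged 70.0 ± 6.56 CPM in IgG and 112 ± 12.3 CPM in CON (SD; -0.67 ± 0.12), the class II factor Ciita fell with a log2 fold change of -2.31 ± 0.45, and the class I heavy chains H2-K1 and H2-D1 were not called (-0.15 ± 0.15 and -0.13 ± 0.15). Cd274, the gene of PD-L1, was not called at 1.68 ± 0.577 CPM in IgG and 3.22 ± 2.02 CPM in CON (adjusted p = 0.0668).

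Of 4 neutrophil markers 3 rose, and 2 without IgG replicate 2. In the wider list of leukocyte, neutrophil and monocyte markers 6 of 19 rose (31.6%, against 30.2% over all genes) and 4 fell, with a median of -0.21. S100a8 had 1.74, 4.27, 2.58 and 1.77 CPM in the IgG libraries, against 0.168, 0.236, 1.67, 0.108 and 0.0892 CPM in the CON libraries (log2 fold change 2.55 ± 0.70 (SE), adjusted p = 0.00528), with CON replicate 3 near the IgG range, and the chemokine Cxcl13 rose, with 6.33 to 15.4 CPM in IgG against 0.162 to 2.07 CPM in CON (3.96 ± 0.65). In the list of complement and chemokines, which holds Cxcl13, 4 of 28 rose and 12 fell. Lymphocyte genes were near the floor. Of 26 T, NK and B cell markers 22 were below the filter, Cd8a among them, at 0 to 0.0630 CPM in IgG and 0 to 0.230 CPM in CON, and changes in those 22 genes were not detectable at this depth. Of the 4 tested, 2 fell and none rose. Cd3e, a chain of the T cell receptor complex, fell, at 0, 0.120, 0 and 0.0611 CPM in the IgG libraries and 0.575 to 1.40 CPM in CON (-4.06 ± 0.85), whereas Cd3d was at 0 in all IgG libraries and at 1 count at most in CON. The antibody heavy chain gene Ighm had 1.74, 21.7, 1.70 and 1.77 CPM in the IgG libraries, against 44.7, 54.1, 50.3, 50.4 and 40.3 CPM in the CON libraries. Values of Ighm did not overlap, and IgG was lower, with a log2 fold change of -2.83 ± 0.74 (SE) and an adjusted p of 0.00399.

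**Figure D4:**
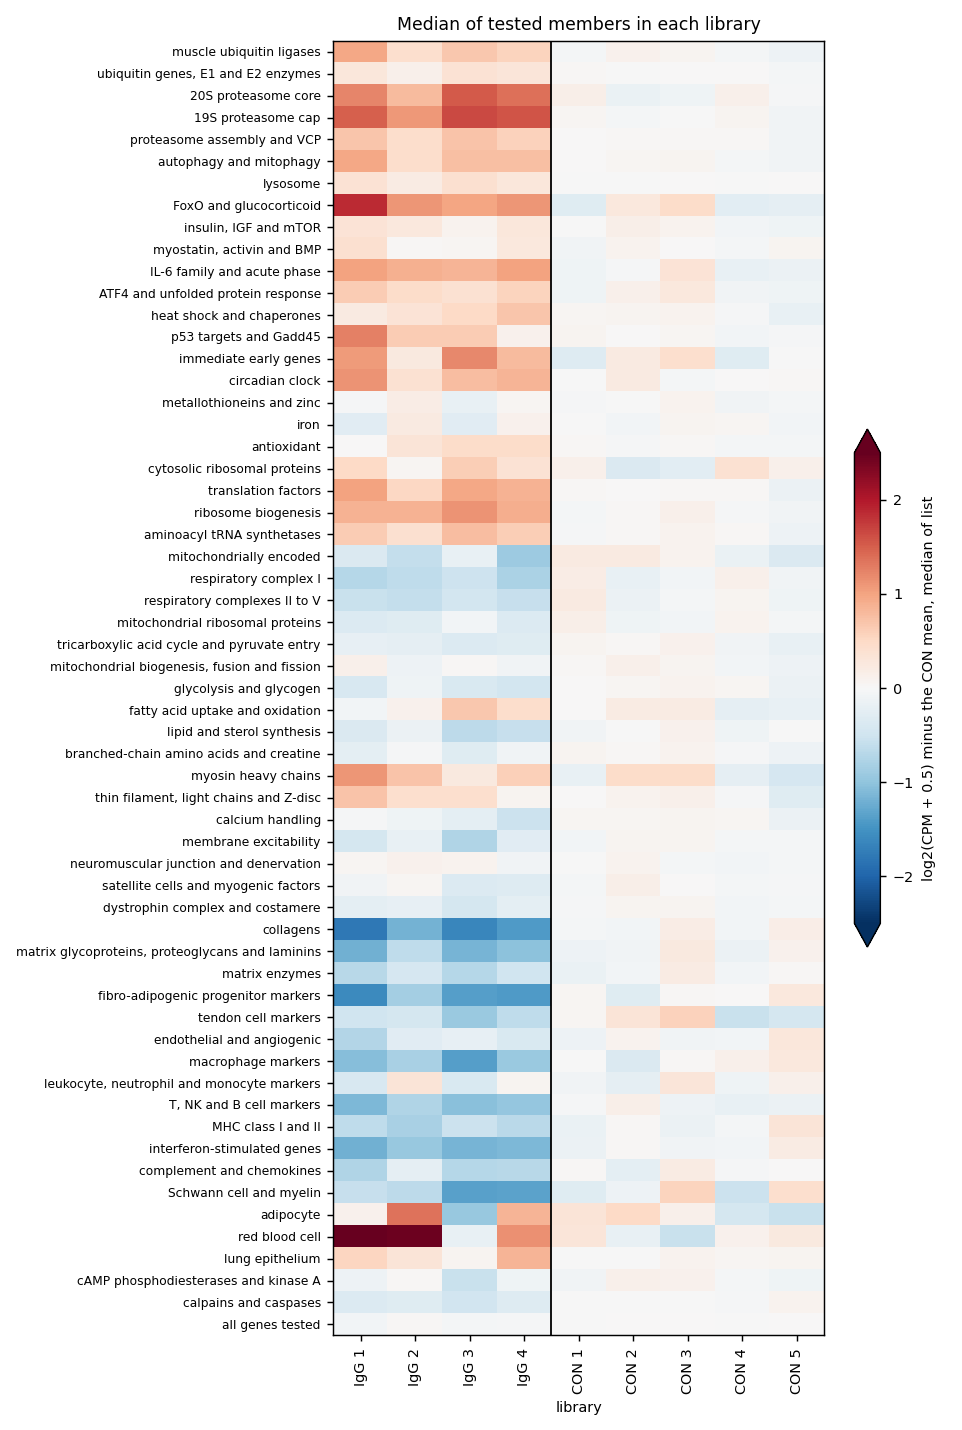
Median over the tested members of each list (rows) of log2(CPM + 0.5) minus the CON mean, in each IgG library (left of the line) and CON library (right); colours saturate at 2.5, which the red blood cell list passes in IgG replicate 1. The proteasome and matrix lists have one sign in all 4 IgG libraries, while the red blood cell and adipocyte lists differ between IgG libraries.

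The genes of largest change, among those with a mean of at least 20 CPM in the higher group and ranges that did not overlap, included genes outside these lists. On the higher side stood Acot1, which frees fatty acids from coenzyme A, with 11.2, 5.72, 57.2 and 96.7 CPM in the IgG libraries, against 1.12, 2.53, 2.24, 0.757 and 0.936 CPM in the CON libraries. Acot1 was higher in every IgG library than in any CON library, with a log2 fold change of 4.83 ± 0.74 (SE) and an adjusted p of 5.18e-05. Its close copy Acot2 rose by 2.25 ± 0.48, and reads may be divided between them. Doc2b, a calcium sensor of vesicle fusion, and Wdr62, a scaffold at the centrosome, rose by 4.30 ± 0.64 and 4.20 ± 0.35, and the kinases Sik1 and Itpkc by 3.85 ± 0.47 and 3.74 ± 0.42. On the lower side Nrep, a small protein linked to nerve regeneration, had 0.931, 5.48, 1.76 and 2.26 CPM in the IgG libraries, against 189, 159.8, 162, 163 and 139 CPM in the CON libraries. For Nrep all IgG values lay below all CON values, with a log2 fold change of -5.95 ± 0.52 (SE) and an adjusted p of 6.7e-07. Plcd4, a phospholipase, and Tmem233 fell with log2 fold changes of -5.01 ± 0.44 and -4.88 ± 0.57. Ky, a Z-disc protein whose loss weakens mouse muscle, had 5.46, 6.14, 9.70 and 2.75 CPM in the IgG libraries, against 129.7, 78.8, 91.1, 137 and 144 CPM in the CON libraries. Values of Ky did not overlap, and IgG was lower, with a log2 fold change of -4.27 ± 0.52 (SE) and an adjusted p of 7.55e-06. Nmrk2, which makes NAD from nicotinamide riboside in muscle, had 2.98, 12.5, 6.99 and 3.54 CPM in the IgG libraries, against 146, 120.2, 96.5, 155 and 66.6 CPM in the CON libraries. Nmrk2 was lower in every IgG library than in any CON library, with a log2 fold change of -4.17 ± 0.61 (SE) and an adjusted p of 3.55e-05.

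Some genes differed in the mean length of their transcripts. The authors' tables give each gene a length, the mean over its transcripts weighted by their estimated share, and this length differed for 398 of 8351 genes tested (4.77%; limma, adjusted p under 0.05), with 118 longer (1.41%) and 280 shorter (3.35%) in IgG. For 124 of these the count was not called. Naca, whose long transcript of 6745 bases encodes a muscle form of this ribosome-associated chaperone and whose short one has 885 bases, had lengths of 5090.0, 4293, 2958 and 4776 bases in the IgG libraries, against 2402, 3136, 3239.6, 2494 and 2483 bases in the CON libraries (log2 length shift 0.62 ± 0.16 (SE), limma adjusted p = 0.0457). The level of Naca rose by 2.33 ± 0.20 in log2 as well. IgG replicate 3 was within the control range for length. Under 10 of 13 alternatives the length call of Naca was lost, as without IgG replicate 1, 2 or 4 or CON replicate 1, 2, 4 or 5 (log2 length shift 0.53 to 0.79, adjusted p at most 0.128 with one library left out). Shorter transcripts gained weight in Vldlr, a lipoprotein receptor, with 4265, 5442, 4915 and 4671 bases in the IgG libraries, against 7490.1, 7192, 7339.7, 7130.5 and 7082 bases in the CON libraries (log2 length shift -0.59 ± 0.07 (SE), limma adjusted p = 0.0022), and in Adk, adenosine kinase, with 554 ± 69.1 bases in IgG and 889.6 ± 97.96 bases in CON (SD; log2 length shift -0.69 ± 0.10 (SE), limma adjusted p = 0.00559). The longest protein-coding transcripts of Adk have 1782 and 1818 bases, more than the mean of any library. Its short entries include processed transcripts of 147 to 633 bases, so the shift need not be one between forms of the enzyme. The Adk count was called lower (log2 fold change -1.18), and counting per effective length that call was lost. Cd200, an immune checkpoint ligand, had 411, 474, 418 and 470.2 bases in the IgG libraries, against 638, 1080.1, 1173, 706 and 655 bases in the CON libraries (log2 length shift -0.89 ± 0.17 (SE), limma adjusted p = 0.0145) with a count that was not called (-0.27 ± 0.19), and counting per effective length turned its log2 fold change to 0.98. The protein-coding transcripts of Cd200 have 2085 and 2347 bases, more than the mean of any of these libraries. Its shorter entries are of other types, such as processed transcripts of 235 to 763 bases, so the shift need not be one between forms of the ligand. Alpk2, a muscle kinase, and Cflar, a brake on caspase 8, shifted to shorter lengths too (log2 length shift -0.96 ± 0.21 (SE), limma adjusted p = 0.0255 for Alpk2 and log2 length shift -0.80 ± 0.14 (SE), limma adjusted p = 0.00983 for Cflar). The length call of Alpk2 was lost under 8 of 13 alternatives, without IgG replicate 1, 3 or 4 or CON replicate 1, 2 or 5 among them, with a log2 length shift of -1.17 to -0.81 and an adjusted p of at most 0.0746 over the fits that left out one library. Srp54a has close copies, so its shift is uncertain (log2 length shift -0.56 ± 0.09 (SE), limma adjusted p = 0.00586).

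**Figure D5:**
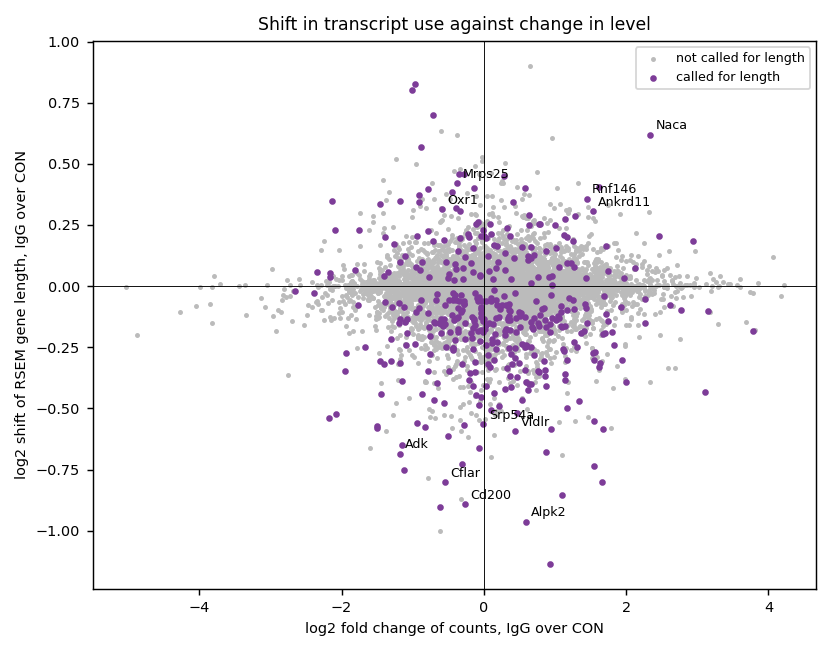
Log2 shift of RSEM gene length (vertical) against log2 fold change of counts (horizontal), both IgG over CON, for 8351 genes; purple points are the 398 called for length. More called points lie below 0 (280) than above (118), and the named genes lie at many values of the count change.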

How the data were processed

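Bulk RNA from the tibialis anterior was sequenced with the MGIEasy RNA Directional kit, per the labels' protocols, and reads were handled with Trim Galore, STAR 2.7.9a and RSEM 1.3.3, per the submitters' processing notes. The genome build, annotation and strand setting are not given in the sources used here, so overlapping and antisense genes are uncertain. The authors deposited for each library the RSEM expected count, TPM and gene length in bases per gene. Symbols were matched for 52083 of 55416 gene IDs with the reference names table, and counts without a symbol made up at most 0.386% of a library. Of non-zero expected counts 19.8% to 22.8% were not whole, and counts were rounded.

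Counts were scaled by TMM, filtered by filterByExpr and tested with edgeR 4.0.16 (quasi-likelihood) in R 4.3.3, in a fit of all 4 groups with 11 residual degrees of freedom, and p-values were adjusted over all 14372 genes by the Benjamini-Hochberg method at 0.05. The SE was taken as the size of a log2 fold change over the root of its F. CPM values are TMM-scaled. Lengths were compared on the log2 scale with limma 3.58.1 for genes with a mean of at least 50 counts in both groups and a length that varied. Shares of the transcript pool, as percent of deposited TPM, were compared by exact two-sided permutation tests, adjusted over 7 shares. Promoters are from RefSeq (GRCm38.p6). Steps across genes were tested on simulated data. With 100 genes changed by 1 and 100 by 2 in log2, among 14051 run, 55.6% and 90.6% of those tested were recovered. Of 147 calls, 5 were false. Far fewer genes were changed there than the 8410 called here, so that run cannot test the scaling. For lengths, a log2 shift of 0.5 was recovered in 92.9% of 197 genes, with 14 false calls.

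Members and lists were chosen with earlier results of these data known. The text names the 12 higher and 12 lower genes of largest change with at least 20 CPM, the 8 with the largest gain or loss in CPM, up to 4 genes per list, a set of genes fixed by name, whole families, and 6 genes per direction of length shift. Some genes that these rules or lists hold are not reported here. Other list members named as examples were chosen after their values were seen. Alternatives were RLE, upper-quartile and total scaling, no mitochondrial genes, other filters, DESeq2 1.42.0, a fit of both groups only, an effective length offset, a replicate block and leaving out each library. Same-numbered IgG and CON libraries did not deviate together (correlations -0.05 to -0.18), so their numbers were not used as pairs.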

Additional observations from a re-analysis of the deposited data

Results flagged for a closer look

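Of 514 groups of values, IgG and CON for each gene named, 48 (9.34%) held a library whose gap to the nearest other took most of the group's range by Dixon's criterion, which chance meets in about 1 in 20. The flags were spread unevenly over libraries, with 18 in CON replicate 3 and 13 in IgG replicate 2. All values are TMM-scaled CPM, and the ranges are those of the other libraries of the group.

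IgG replicate 1 was the highest of its group for Ppp1r15a, at 533 CPM against 209 to 228 CPM. For Slc7a1 it was also the highest, at 32.6 CPM against 13.4 to 15.9 CPM. For Maff it was also the highest, at 161 CPM against 19.7 to 38.9 CPM. It was likewise the highest for Foxo3 (185 CPM).

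IgG replicate 2 was the highest of its group for Apln, at 0.120 CPM against 0 CPM. For Ighm it was also the highest, at 21.7 CPM against 1.70 to 1.77 CPM. For Psph it was also the highest, at 3.73 CPM against 1.13 to 1.24 CPM. It was likewise the highest for Acta1 (15505 CPM), Ctso (5.42 CPM), Fbn1 (12.8 CPM), Pgm1 (377 CPM) and Ckb (3.67 CPM). Other such genes were Folr2 (0.602 CPM), Odc1 (443 CPM), Steap3 (7.28 CPM) and Clec3b (5.60 CPM). IgG replicate 2 was the lowest of its group for Ubb, at 2174 CPM against 3629 to 3828 CPM.

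IgG replicate 3 was the highest of its group for Cd8a, at 0.0630 CPM against 0 CPM. For mt-Co3 it was also the highest, at 7622 CPM against 4491 to 5004 CPM. For Dbp it was also the highest, at 5.99 CPM against 2.69 to 3.25 CPM.

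IgG replicate 4 was the highest of its group for Xirp1, at 1608 CPM against 474 to 584 CPM. For Sln it was also the highest, at 52.5 CPM against 13.8 to 17.6 CPM. For Krt8 it was also the highest, at 6.78 CPM against 0.378 to 1.08 CPM. It was likewise the highest for Chrnd (3.12 CPM) and Slc7a5 (22.2 CPM). IgG replicate 4 was the lowest of its group for Aldoa, at 9739 CPM against 14428 to 15221 CPM.

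CON replicate 3 was the highest of its group for Socs3, at 11.2 CPM against 2.36 to 2.60 CPM. For Mt2 it was also the highest, at 229.6 CPM against 6.02 to 16.2 CPM. For Mt1 it was also the highest, at 262.6 CPM against 14.7 to 34.2 CPM. It was likewise the highest for Lcn2 (4.37 CPM), Serpina3n (12.4 CPM), S100a8 (1.67 CPM), Lox (52.7 CPM) and Cxcl13 (2.07 CPM). Other such genes were Junb (16.0 CPM), Maff (17.1 CPM), Trim63 (1258 CPM), Slc39a14 (41.4 CPM) and Cdkn1a (62.9 CPM). Other such genes were Ppargc1a (301 CPM), Sik1 (30.7 CPM), Myh1 (4166 CPM), Cd8a (0.230 CPM) and Serpinh1 (121 CPM).

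CON replicate 2 was the highest of its group for Myh7, at 1016 CPM against 32.7 to 195 CPM. For Itpkc it was also the highest, at 3.30 CPM against 2.90 to 2.98 CPM. For Igfbp5 it was also the highest, at 494 CPM against 345 to 387 CPM.

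CON replicate 4 was the highest of its group for Slc39a1, at 51.1 CPM against 46.1 to 47.2 CPM.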

How the results depend on the processing

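The number of genes called stayed within 1.5 times of 8410 under all 19 alternatives: 8416 with RLE, 8765 with upper-quartile and 8106 with total scaling, 8388 without mitochondrial genes, 8398 without a filter, 7914 with a filter of 1 CPM, 8696 with DESeq2, 8011 in a fit of both groups only, 7937 with the length offset, and 7664 (without IgG replicate 1) to 8670 (without IgG replicate 2) when one library was left out. With the replicate number as a block 7312 were called, 3819 higher and 3493 lower; 118 length shifts were called with that block and 194 in the fit of both groups, against 398. With one library left out, genes called and at least 2-fold were 3810 to 4903, genes higher 3962 to 4386 and genes lower 3690 to 4284, and length shifts 242 (without IgG replicate 1) to 540 (without IgG replicate 2), with 250 without CON replicate 1 and 254 without CON replicate 2. Upper-quartile scaling gave 37.0% of calls higher, against 51.5%. As shares of expected counts, the myosin heavy chains differed by 0.673 points (adjusted p = 0.0926; 0.223 points and 0.0370 in TPM), glycolysis by -1.52 points (0.0278; -0.613 points and 0.0952 in TPM) and ribosomal proteins by 0.471 points (0.159; 2.05 points and 0.0556 in TPM). Leaving out one library raises the smallest p an exact test can give, and the differences in points were then -8.05 to -5.73 for mitochondrially encoded genes, 0.166 to 0.264 for myosin heavy chains, -2.36 to -1.38 for thin filament genes, -0.798 to -0.400 for glycolysis, 1.78 to 2.43 for ribosomal proteins, 0.449 to 0.569 for the proteasome and -9.01 to -6.28 for the 10 most abundant CON genes. Of 220 genes named and called, 203 kept the call under every alternative. The sign turned for Cd200 (0.98), Cflar (0.33) and Srp54a (0.60) with the length offset, and for Srp54a without IgG replicate 4 (0.02) or CON replicate 1 (0.06). Genes called in neither fit changed sign 39 times, with values of -0.25 to 0.11. The causes were not tested. Depth limits genes near 0.160 CPM, many lymphocyte markers among them.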
